A study of Macaca mulatta with 12 samples.

Results

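The genes described here are 10 genes whose transcripts were low in the homozygous parthenogenetic embryonic stem (ES) cell line ORMES-9, namely CAVIN2, DCBLD2, TMEFF2, NPTX2, DUSP23, TRIM4, CREB3L4, ZNF22, ERI2 and RWDD3. They were chosen by their measured log2 expression on these same arrays, low in ORMES-9 against the ES lines rPESC-2 or ORMES-22, and all 16 probe sets that the platform annotation gives to these symbols were taken, out of 52766 probe sets and 12993 named genes. Each of 12 Affymetrix rhesus macaque arrays carried the RNA of 1 sample, with 3 replicates (A, B and C) per cell population. The line ORMES-22 is a biparental female ES line from an embryo fertilised in vitro, rPESC-2 a female heterozygous parthenogenetic ES line, and ORMES-9 a female line called a homozygous parthenote in its description and in the study design, although its source and treatment fields name a fertilised embryo. The fourth population was skin fibroblasts of a male adult monkey aged 9 years. The ES lines grew on inactivated mouse feeder fibroblasts in 15% serum and the fibroblasts in 10% serum, and ES RNA came from undifferentiated colonies at passages 18, 21 and 19 of ORMES-22, 16, 10 and 16 of rPESC-2, and 13, 14 and 16 of ORMES-9 (replicates A, B and C). Each cell population is a single line or skin source, so line, passage and genotype cannot be told apart. The p-values rest on the spread between replicates within populations, pooled over all populations in the fit, and not on spread between lines. A wide spread in a population therefore also widens the errors of contrasts that leave it out.

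An egg that develops without fertilisation gives an embryo with maternal genomes only. A heterozygous parthenogenetic line keeps different maternal alleles at many loci, whereas a homozygous one carries the same allele on both copies of a locus, so that any variant it has is present without another allele beside it. The 10 genes have unrelated functions. CAVIN2, DCBLD2 and TMEFF2 act at the cell membrane, NPTX2 is secreted, DUSP23 and TRIM4 are enzymes acting on proteins, CREB3L4 and ZNF22 are transcription factors or related proteins, and ERI2 and RWDD3 act on RNA and on SUMO conjugation.

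Values are log2 expression summaries per probe set, so a difference of 1 is 2-fold. Array medians lay between 5.012 and 5.098. The 42 bacterial control probe sets, which match no macaque gene, had a median of 3.75 and a 90th percentile of 4.26, and a value near or below that level is close to background. A probe set was called when it differed at least 2-fold and limma put its adjusted p below 0.05. ORMES-22 replicate A stood apart. Over all probe sets its correlation to replicates B and C was 0.9855 and 0.9844, against 0.9928 between those 2. This array was closer to every rPESC-2 array (0.9896 for A, 0.9882 for B, 0.9883 for C) than to its own line. Its values with ORMES-9 arrays were 0.9839 to 0.9849. Within each population other than ORMES-22, correlations were at least 0.9937. Of 10 ES cell markers listed, 7 were measured, and 7 were above 4.26 in each ES line and 5 in fibroblasts. The ES lines were set apart by POU5F1, SOX2, LIN28B, DPPA4 and DNMT3B, with POU5F1 at 13.12, 12.87 and 12.91 in ORMES-22, rPESC-2 and ORMES-9 and 4.90 in fibroblasts. ZFP42 was 4.43 to 4.53 in ES lines and 4.38 in fibroblasts, close to the control level in all, and the NANOG probe set was 9.53 in fibroblasts and 7.95 to 8.41 in ES lines. Of 10 fibroblast markers 9 were measured, and 8 of these were above 4.26 in each ES line. Their summed linear level was 53600 to 58400 on the fibroblast arrays, 13300 to 17400 in ORMES-22, 6850 to 11600 in rPESC-2 and 7660 to 9960 in ORMES-9. The 5 endoderm markers, all measured and all above 4.26 in the ES lines, summed to 365 to 554 in ORMES-22 but 1150 to 1290 in rPESC-2 and 964 to 1190 in ORMES-9, with SOX17 at 5.18, 8.10 and 7.55. The part of these marker differences between the ES lines in the values below was not tested.

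Through the brightest probe set of each gene, the ORMES-9 arrays lay below all 6 arrays of the other ES lines for 9 of the 10 genes, the exception being CREB3L4, as they did for 542 of all 12993 genes (4.17%). Of the 16 probe sets, 11 were called lower in ORMES-9 than in ORMES-22 (0.629% of all probe sets were) and 10 lower than in rPESC-2 (0.688% of all). Since these contrasts chose the genes, the counts and the values below from them are a description. At the edges of the choice, the smallest difference of a brightest probe set was −0.09 against ORMES-22, for CREB3L4, and −2.10 against rPESC-2, for ZNF22. Among all 12993 genes, 5 were at least 8-fold lower in ORMES-9 than in both other lines, and these were CAVIN2, DCBLD2, TMEFF2, ERI2 and RWDD3. In bulk RNA, fewer cells with a transcript and less of it per cell cannot be told apart.

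**Figure D1:**
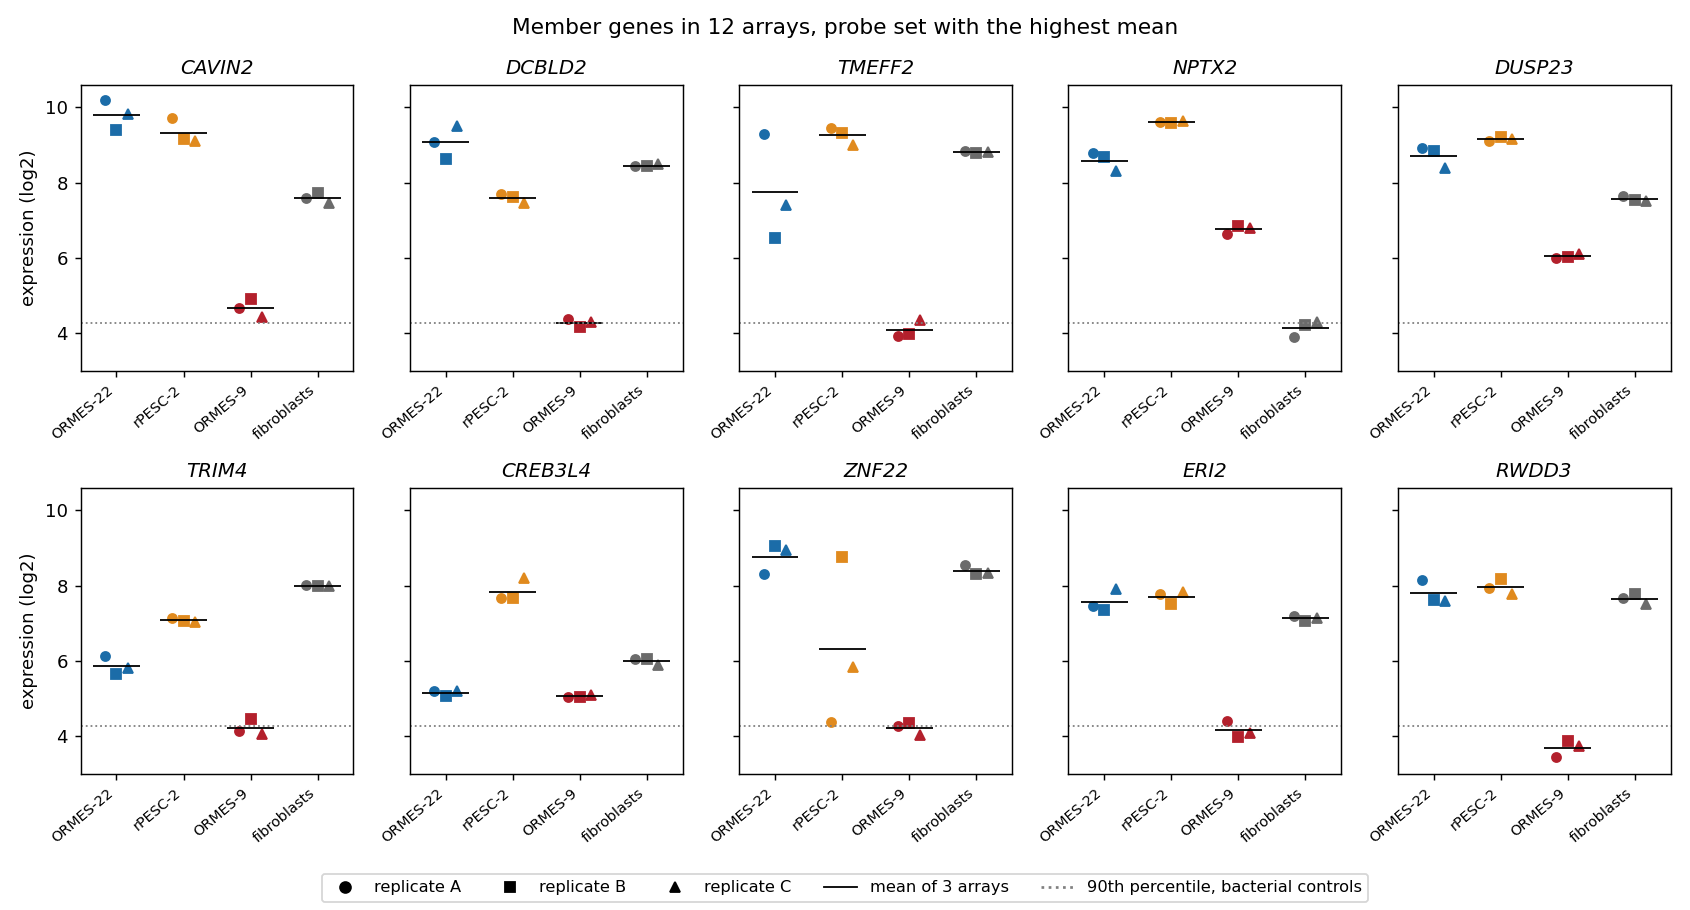
Expression (log2, vertical axis) of the 10 genes in 12 arrays by cell population, with a symbol for each replicate, a bar for the mean of 3 arrays and a dotted line at the 90th percentile of bacterial controls (4.26). ORMES-9 is lowest of the 4 populations for 9 genes, with CREB3L4 overlapping ORMES-22, and fibroblasts are lowest for NPTX2.

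CAVIN2 encodes a protein of the coat of caveolae, the flask-shaped pits of the plasma membrane. Its brighter probe set, MmugDNA.3041.1.S1_at, read 4.67, 4.91 and 4.42 in ORMES-9 replicates A, B and C, 10.19, 9.40 and 9.83 in ORMES-22, and 9.71, 9.15 and 9.12 in rPESC-2. Every ORMES-9 array was therefore more than 4 log2 units below every other ES array, a mean difference of −5.14 (SE 0.21) against ORMES-22 and −4.66 (SE 0.21) against rPESC-2. The dimmer probe set, MmugDNA.5485.1.S1_at, gave the same order, at 4.76, 4.50 and 4.67 in ORMES-9 and between 6.88 and 7.82 in the other ES arrays, and correlated with the first at 0.99 over the 12 arrays. Fibroblasts read 7.60, 7.73 and 7.47, between ORMES-9 and the other ES lines with no overlap, and were 4.61-fold lower than ORMES-22 (log2 −2.21, SE 0.21, limma adjusted p = 1.9e-06). By the brighter probe set rPESC-2 and ORMES-22 overlapped and their difference was not called (−0.48, SE 0.21, limma adjusted p = 0.21). By the dimmer one they did not overlap, and rPESC-2 was lower by less than the 2-fold minimum (−0.60, SE 0.14, limma adjusted p = 0.036).

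Other caveola genes were measured for 6 of 9 listed, and none was called in ORMES-9 against ORMES-22 or rPESC-2 by limma. CAV1, the main caveolin of most cells, had means of 12.10 in ORMES-22, 11.03 in rPESC-2 and 11.39 ± 0.57 in ORMES-9 (SD, n = 3), and was called higher in fibroblasts than in ORMES-22 (1.26, SE 0.28, limma adjusted p = 0.0026). Over all arrays, CAV1 in rPESC-2 against ORMES-22 was near the threshold and not called (−1.07, SE 0.28, limma adjusted p = 0.055). It was called lower without ORMES-22 replicate A (−1.29, SE 0.29, limma adjusted p = 0.011) and with dim probe sets left out (limma adjusted p = 0.04). PACSIN2, a membrane-bending protein, was 9.25, 9.14 and 9.26 in ORMES-22, rPESC-2 and ORMES-9. Endothelium is rich in caveolae, and of its 3 markers TEK was 7.85 in ORMES-9 against 10.15 in ORMES-22 and 10.06 in rPESC-2, while PECAM1 (5.20 to 5.31) and CDH5 (5.41 to 5.61) had ES means in narrow ranges. The markers' summed linear level was 253 to 407 in ORMES-9, 1070 to 1530 in ORMES-22 and 1090 to 1200 in rPESC-2, and its part in the CAVIN2 values was not tested.

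DCBLD2 encodes a transmembrane protein with CUB and discoidin domains that modulates growth factor receptors. Probe set MmugDNA.7385.1.S1_at read 4.36, 4.16 and 4.30 in ORMES-9, 9.08, 8.63 and 9.50 in ORMES-22, 7.70, 7.63 and 7.45 in rPESC-2, and 8.43, 8.43 and 8.50 in fibroblasts. No 2 populations overlapped, in the order ORMES-22, fibroblasts, rPESC-2 and ORMES-9. DCBLD2 was the only gene of the 10 called lower in rPESC-2 than in ORMES-22, 2.79-fold (−1.48, SE 0.17, limma adjusted p = 0.00037). The dimmer probe set, MmugDNA.15316.1.S1_at, did not follow it, with ORMES-9 at 5.26, 4.74 and 4.98 against 4.65 to 4.86 in the other ES lines, and correlated with the first at only 0.01. The related receptor genes DCBLD1, NRP1 and NRP2 were measured, and limma called none of these through its brightest probe set in any contrast between ES lines. Another NRP1 probe set was called higher in rPESC-2 than in ORMES-22 (1.13, SE 0.17, limma adjusted p = 0.0026).

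TMEFF2 encodes a transmembrane protein with follistatin-like and EGF-like domains. Probe set MmugDNA.20513.1.S1_at read 3.91, 3.96 and 4.34 in ORMES-9, 9.45, 9.32 and 9.01 in rPESC-2, and 8.84, 8.79 and 8.81 in fibroblasts. ORMES-22 was uneven, at 9.30, 6.52 and 7.41, so that replicate A lay within the rPESC-2 range and replicates B and C below it, though all 3 were above ORMES-9. rPESC-2 exceeded ORMES-22 by 1.52 (SE 0.49, limma adjusted p = 0.11), which was not called, but without ORMES-22 replicate A the difference was 2.29 and called (limma adjusted p = 4.3e-05). The same holds for fibroblasts against ORMES-22, at 1.07 (SE 0.49, limma adjusted p = 0.085) with that array and a called 1.85 (limma adjusted p = 1.6e-05) without it. The other probe set, MmugDNA.11369.1.S1_at, was between 3.41 and 3.66 on all 12 arrays, below the control level, and held no information on the gene. Limma called none of the 3 measured genes of 4 listed relatives (TMEFF1, FST and FSTL1) in contrasts between ES lines.

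NPTX2 encodes a secreted pentraxin that clusters AMPA receptors at synapses. Its probe set read 6.64, 6.84 and 6.79 in ORMES-9, 8.79, 8.67 and 8.30 in ORMES-22, and 9.62, 9.58 and 9.63 in rPESC-2. Unlike the genes above, it stayed well above the control level in ORMES-9, and the lowest population was the fibroblasts at 3.88, 4.20 and 4.29. With 2 of these 3 arrays under the control level of 4.26, the fibroblast level is only bounded from above, and no fold is given. The measured difference of fibroblasts was −4.47 from ORMES-22 (SE 0.13, limma adjusted p = 4.6e-11) and −5.49 from rPESC-2 (SE 0.13, limma adjusted p = 6.8e-12). rPESC-2 was 2.03-fold higher than ORMES-22 (1.02, SE 0.13, limma adjusted p = 0.001), close to the 2-fold minimum, and omission of ORMES-22 replicate C (0.88) or quantile normalisation (0.99) ended the call. Of 7 other pentraxin and AMPA receptor genes listed, 3 were measured. GRIA1, an AMPA receptor subunit, was 6.25, 6.76 and 6.11 in ORMES-22, rPESC-2 and ORMES-9 and not called between ES lines by limma, and PTX3 was 3.37 to 3.50 in ES lines and 8.36 in fibroblasts.

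DUSP23 encodes a small dual-specificity protein phosphatase. It read 6.0, 6.02 and 6.11 in ORMES-9, 8.91, 8.83 and 8.39 in ORMES-22, 9.11, 9.21 and 9.15 in rPESC-2, and 7.64, 7.53 and 7.50 in fibroblasts. ORMES-9 was thus reduced and not at background, and all 4 populations were apart. Fibroblasts were 2.22-fold lower than ORMES-22 (−1.15, SE 0.12, limma adjusted p = 3.6e-06), while rPESC-2 differed from ORMES-22 by 0.45 (SE 0.12, limma adjusted p = 0.048), under the 2-fold minimum. All 8 other dual-specificity phosphatase genes listed were measured, and limma called none between ES lines.

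TRIM4 encodes a RING-type ubiquitin ligase that acts on the viral RNA sensor RIG-I, and its 3 probe sets differed. MmuSTS.4614.1.S1_at was ordered from ORMES-9 (4.12, 4.46 and 4.06) through ORMES-22 (6.13, 5.64 and 5.81) and rPESC-2 (7.14, 7.06 and 7.03) to fibroblasts (8.01, 8.0 and 8.0), with no overlap. rPESC-2 was 2.32-fold above ORMES-22 by this probe set (1.21, SE 0.13, limma adjusted p = 2e-04), and fibroblasts were 4.42-fold above ORMES-22 (2.14, SE 0.13, limma adjusted p = 2.9e-08). MmuSTS.4308.1.S1_s_at had the same high fibroblast values (8.03, 7.75 and 7.85) but read 5.17, 5.31 and 5.23 in ORMES-9, overlapping ORMES-22 (5.22, 5.68 and 5.89) and above rPESC-2 (5.06, 5.04 and 4.88). By that probe set rPESC-2 lay below ORMES-22 (−0.60, SE 0.14, limma adjusted p = 0.035), opposite in sign to the first. MmugDNA.19954.1.S1_at was 4.06 to 4.44 in all ES arrays, around the control level. The deficit of TRIM4 in ORMES-9 therefore rests on 1 of 3 probe sets, and the higher level in fibroblasts than in ORMES-22 was called by 2. All 6 RIG-I pathway genes listed (RIGI, IFIH1, MAVS, TRIM25, TBK1 and IRF3) were measured, and limma called none between ES lines.

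**Figure D2:**
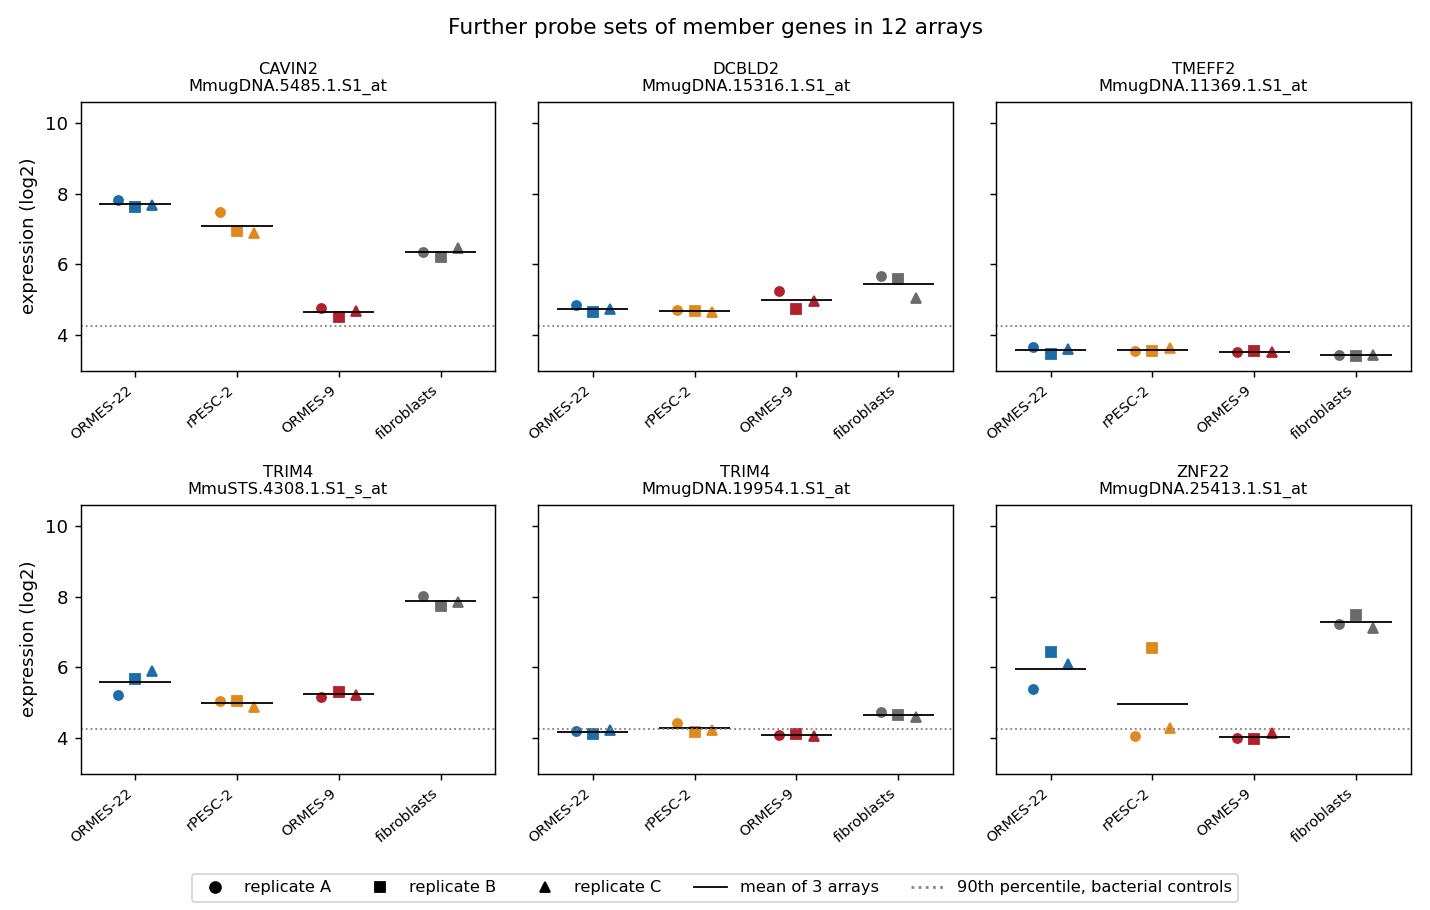
Expression (log2, vertical axis) of the 6 further probe sets of the 10 genes in 12 arrays by cell population, drawn as for the brightest probe sets. CAVIN2 and ZNF22 repeat the low ORMES-9 values of their brighter probe sets, whereas the DCBLD2, TMEFF2 and TRIM4 probe sets show no ORMES-9 array clearly below the other ES lines.

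CREB3L4 encodes a transcription factor of the CREB3 family, held in internal membranes until it is cut by proteases. It read 5.03, 5.04 and 5.08 in ORMES-9 and 5.19, 5.05 and 5.19 in ORMES-22, which overlapped, against 7.66, 7.68 and 8.19 in rPESC-2 and 6.04, 6.04 and 5.88 in fibroblasts. The gene was thus low in 2 ES lines and high in rPESC-2, and calling it lost in ORMES-9 goes against its values. rPESC-2 was above ORMES-22 by 2.70 (SE 0.12, 6.49-fold) and above ORMES-9 by nearly the same amount, ORMES-9 minus rPESC-2 being −2.79 (SE 0.12). Fibroblasts were above ORMES-22 by 0.85 (SE 0.12, limma adjusted p = 9.3e-05), under the 2-fold minimum. Of 10 listed genes of related factors and their processing, 8 were measured, and limma called none between ES lines through its brightest probe set. CREB3 itself was 8.43, 8.27 and 8.58 in ORMES-22, rPESC-2 and ORMES-9, but another CREB3 probe set was called lower in ORMES-9 than in ORMES-22 (−1.01, SE 0.18, limma adjusted p = 0.0048).

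ZNF22 encodes a zinc finger protein of the C2H2 type and differed more between replicates of 1 line than any other of the 10. Probe set MmugDNA.37061.1.S1_at read 4.27, 4.34 and 4.03 in ORMES-9 and 8.30, 9.05 and 8.96 in ORMES-22, but 4.37, 8.75 and 5.83 in rPESC-2. Replicate B of rPESC-2, at passage 10, was as high as ORMES-22, while replicate A, at passage 16, was barely above the highest ORMES-9 array and replicate C, also at passage 16, lay between. The dimmer probe set, MmugDNA.25413.1.S1_at, repeated this, with 4.06, 6.54 and 4.29 in rPESC-2, 4.01, 3.97 and 4.14 in ORMES-9 and 5.38, 6.43 and 6.09 in ORMES-22. The 2 probe sets correlated at 0.90 over 12 arrays. With 3 arrays of rPESC-2 and 1 at the earlier passage, the part of passage in these values was not tested.

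By the dimmer probe set ORMES-9 differed from ORMES-22 by −1.93 (SE 0.50), one of the 11 called probe sets above. Omission of ORMES-22 replicate B (−1.70) or replicate C (−1.87) ended that call. So did omission of any single fibroblast array (−1.93) or any single ORMES-9 array (−1.98 to −1.90), subtraction of array medians (−1.91), and trend and robust moderation (−1.93). With only the arrays of ORMES-9 and ORMES-22 in the fit, the call was kept (−1.93, SE 0.25).

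The spread of ZNF22 (SD 2.23 in rPESC-2) widened its errors in all contrasts. rPESC-2 differed from ORMES-22 by −2.45 (SE 0.77, limma adjusted p = 0.097), which was not called, and by a called −3.67 without rPESC-2 replicate B (limma adjusted p = 0.00028). ORMES-9 differed from rPESC-2 by −2.10 (SE 0.77) with all arrays, −0.89 without replicate B and −3.08 without replicate A. Fibroblasts read 8.55, 8.31 and 8.34, overlapping ORMES-22 (−0.37, SE 0.77, limma adjusted p = 0.70). They were called higher than rPESC-2 (2.08, SE 0.77, limma adjusted p = 0.04), but the difference was 1.11 and not called without rPESC-2 replicate A (limma adjusted p = 0.17) and 3.30 without replicate B. Omission of rPESC-2 replicate C (1.84), of any single fibroblast array (2.01 to 2.13) or of any single ORMES-9 array (2.08) also ended that call. A fit of only these 2 groups (limma adjusted p = 0.069) and trend and robust moderation (limma adjusted p = 0.065) ended it too, both at 2.08. By the dimmer probe set fibroblasts were above ORMES-22 by a called 1.31 (SE 0.50, limma adjusted p = 0.044). That call was lost on omission of ORMES-22 replicate A (1.02) or C (1.37), any single fibroblast array (1.21 to 1.38) or any single ORMES-9 array (1.31). Quantile normalisation (1.27, limma adjusted p = 0.053) and trend and robust moderation (1.31, limma adjusted p = 0.064) also ended it.

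ERI2 encodes an exonuclease of the ERI family. It read 4.40, 3.98 and 4.08 in ORMES-9, 7.46, 7.35 and 7.91 in ORMES-22, 7.77, 7.51 and 7.82 in rPESC-2, and 7.19, 7.06 and 7.13 in fibroblasts. The other populations differed from one another by less than the 2-fold minimum, with rPESC-2 minus ORMES-22 at 0.12 (SE 0.15, limma adjusted p = 0.68) and fibroblasts minus ORMES-22 at −0.45 (SE 0.15, limma adjusted p = 0.023), under the 2-fold minimum. ERI1, the histone mRNA exonuclease of the same family, was 5.02, 5.54 and 5.20 in ORMES-22, rPESC-2 and ORMES-9, and limma called none of the 3 related genes measured (of 5 listed) between ES lines.

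RWDD3 encodes a protein that promotes SUMO conjugation through the conjugating enzyme UBC9. It read 3.45, 3.87 and 3.72 in ORMES-9, all below the control level of 4.26, against 8.16, 7.62 and 7.60 in ORMES-22, 7.93, 8.17 and 7.79 in rPESC-2, and 7.67, 7.79 and 7.51 in fibroblasts. The 9 arrays outside ORMES-9 thus spanned only 7.51 to 8.17, with rPESC-2 minus ORMES-22 at 0.17 (SE 0.16, limma adjusted p = 0.59) and fibroblasts minus ORMES-22 at −0.13 (SE 0.16, limma adjusted p = 0.51). RWDD3 and ERI2 were the genes of the 10 with the least difference among the other populations and a large one to ORMES-9 (−4.11, SE 0.16, and −3.42, SE 0.15, against ORMES-22). Of 13 SUMO pathway genes listed, 8 were measured, and limma called none between ES lines.

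Over the 9 lists of related genes, 48 of 65 were measured. Limma called 0 of the 48 in ORMES-9 against ORMES-22 (9 at an unadjusted p under 0.05), 0 against rPESC-2 (15) and 0 in rPESC-2 against ORMES-22 (11), with medians of −0.07, −0.01 and −0.02. Of all genes, 24.5%, 21.8% and 26.2% had an unadjusted p under 0.05 in these contrasts, and 2.29%, 1.65% and 1.7% were called. The differences of the 48 between ORMES-9 and ORMES-22 ran from −0.71 to 0.53. The lowest of these was CAV1, above. In fibroblasts against ORMES-22, where calls were common, 13 of the 48 were called higher (13.5% of all genes) and 3 lower (13.9% of all), among them NRP1 (3.02, SE 0.15, limma adjusted p = 4.9e-09) and CREB3 (1.43, SE 0.11, limma adjusted p = 3.1e-07) higher and TMEFF1 (−4.43, SE 0.22, limma adjusted p = 4.9e-09) lower.

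Contrasts without ORMES-9 and contrasts with fibroblasts did not choose the genes, although the ES arrays in them were those of the choice. In rPESC-2 against ORMES-22, 3 of 10 genes were called higher (NPTX2, TRIM4 and CREB3L4; 1.02% of all genes were) and 1 lower (DCBLD2; 0.685% of all). A gene picked against 1 of these lines alone is favoured to be high in that line, as CREB3L4 in rPESC-2, so these counts are not independent of the choice. In fibroblasts against ORMES-22, 1 gene was called higher (TRIM4; 13.5% of all genes) and 3 lower (CAVIN2, NPTX2 and DUSP23; 13.9% of all), and the median of the 10 was −0.41 against −0.18 over all genes. In fibroblasts against rPESC-2, 1 was called higher (ZNF22; 13.3%) and 4 lower (CAVIN2, NPTX2, DUSP23 and CREB3L4; 15.7%). By probe set, 4 of 16 were called in rPESC-2 against ORMES-22 (1.24% of all), 7 in fibroblasts against ORMES-22 (18.8%) and 7 against rPESC-2 (19.9%). The shares of genes in fibroblasts are thus of the order of those over all genes or, for lower genes, above them, on 10 genes. Genes picked as high in ORMES-22 or rPESC-2 against ORMES-9 are favoured to be lower in fibroblasts than in those lines. These shares are therefore not independent of the choice either, and are a description.

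Against ORMES-9, whose low arrays were part of the choice, fibroblasts were higher by the call rule in 8 of 10 genes (13% of all genes) and lower in 1, NPTX2 (16% of all), and 12 of 16 probe sets were called (19.9% of all). The excess ran from 1.52 (SE 0.12) for DUSP23 to 4.74 (SE 0.49) for TMEFF2, and CREB3L4 was 0.94 higher (SE 0.12), under the 2-fold minimum.

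**Figure D3:**
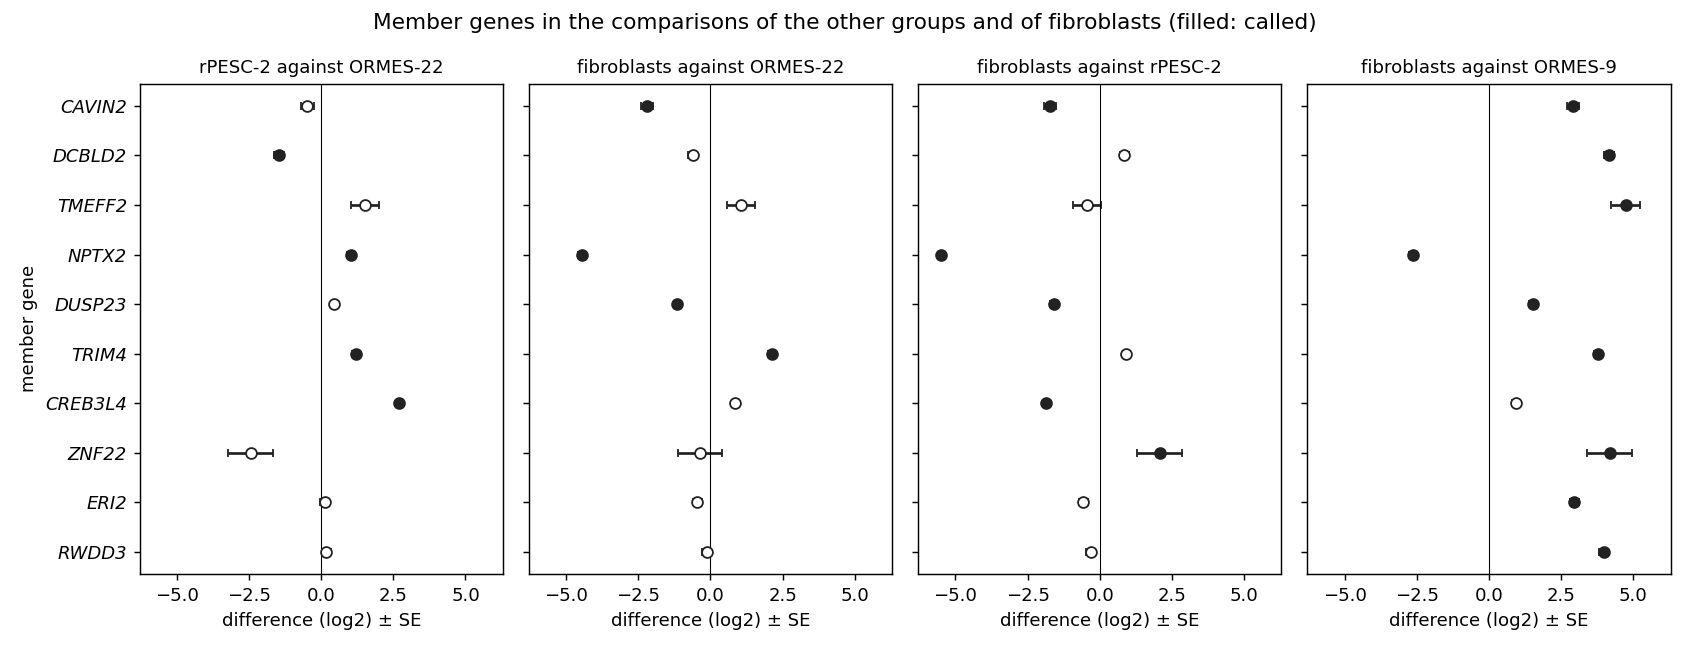
Difference of group means (log2, horizontal axis, with its SE from limma) of the 10 genes through their brightest probe sets in 4 contrasts, filled where called. Fibroblasts exceed ORMES-9 in 9 of 10 genes, NPTX2 being the exception, while differences among the other populations fall on both sides of 0.

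The genes lie on 6 chromosomes in the order of the RefSeq gene table of T2T-MMU8v2.0, used here for gene order and for whether neighbouring spans overlap. CAVIN2 and TMEFF2 are next to each other among measured genes on chromosome 12, with 2 annotated genes between them and no measured one. NPTX2 and TRIM4 are both on chromosome 3 with 19 measured genes between them, and DUSP23, CREB3L4 and RWDD3 are on chromosome 1 with 97 measured genes between DUSP23 and CREB3L4 and 203 between CREB3L4 and RWDD3. DCBLD2 is on chromosome 2, ZNF22 on chromosome 9 and ERI2 on chromosome 20.

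Genes beside the members, up to 5 measured on each side none of which entered the choice, were mostly not called. Of 90 such genes, 2 were called lower in ORMES-9 than in ORMES-22 (0.916% of all genes) and 1 higher (1.38% of all), and 2 were called lower than in rPESC-2 (0.877%) and none higher (0.777%), with 19 and 16 at an unadjusted limma p under 0.05. Their median differences were −0.03 and 0.01. Beside CAVIN2 and TMEFF2 the measured genes on either side, NABP1 and STK17B, were 4.46 and 5.31 in ORMES-9 against 4.20 and 5.30 in ORMES-22, both dim, and the brighter NAB1 and GTF3C3 further out were 8.59 and 8.77 against 8.75 and 8.39. The 10 neighbours of RWDD3 lay between −0.37 and 0.30 against ORMES-22, those of NPTX2 between −0.55 and 0.22, and those of CREB3L4 between −0.11 and 0.53. CAVIN2, TMEFF2, RWDD3, DCBLD2, ZNF22 and ERI2 were lower than in ORMES-22 by at least 3 log2 units, and the lowest neighbour difference was −2.21. Neighbours near the control level in ORMES-22, such as ACSM3 (4.21) near ERI2 and ST3GAL6 (4.48) near DCBLD2, could not show such a fall. These neighbours therefore cannot tell how far the low values extend.

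Both lower neighbours were lower against both lines. REXO5, which encodes an RNA exonuclease and follows ERI2 directly, read 5.27, 5.24 and 5.55 in ORMES-9, 8.13, 7.29 and 7.14 in ORMES-22, and 7.54, 7.16 and 7.14 in rPESC-2. It was lower by −2.17 (SE 0.21, limma adjusted p = 7.1e-05) and −1.93 (SE 0.21, limma adjusted p = 0.00021). A second REXO5 probe set was also called, at −1.05 and −1.04 (limma adjusted p = 1e-04 and 0.00013). The annotated spans of ERI2 and REXO5 overlap, so signal of one gene in a probe set of the other cannot be told apart here.

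CXCL12, a chemokine that guides migrating cells, lies 3 measured genes before ZNF22 and read 5.92, 5.46 and 5.57 in ORMES-9, 7.75, 7.85 and 7.98 in ORMES-22, and 7.62, 7.90 and 8.11 in rPESC-2. It differed by −2.21 (SE 0.14, limma adjusted p = 2.8e-06) and −2.23 (SE 0.14, limma adjusted p = 2.7e-06), though its 2 dimmer probe sets were not called. Unlike ZNF22, CXCL12 was high in all 3 rPESC-2 arrays, and the genes between them, RASSF4 and DEPP1, had means of 5.92 and 5.26 in ORMES-9 against 5.99 and 5.31 in ORMES-22. In rPESC-2 against ORMES-22, PGAP1 was called higher (1.17, SE 0.25, limma adjusted p = 0.022) and ARHGAP29 lower (−1.28, SE 0.27, limma adjusted p = 0.021) among the 90. The neighbour called higher in ORMES-9 than in ORMES-22 was IGSF9 near DUSP23, at 1.12 (SE 0.14, limma adjusted p = 0.00048). Without ORMES-22 replicate A, 5 neighbours were called against ORMES-22, FILIP1L (−1.67) and TAGLN2 (−1.17) being added. FILIP1L is next to DCBLD2 among measured genes, and TAGLN2 is near DUSP23. That omission also added a call against rPESC-2, for LNP1 near DCBLD2 (−1.08, SE 0.14, limma adjusted p = 0.00061).

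Further out, within 10 measured genes on each side, CSGALNACT2, an enzyme of chondroitin sulfate synthesis that lies 7 measured genes before ZNF22, was also called lower in ORMES-9 than in ORMES-22 (−2.59, SE 0.36, limma adjusted p = 0.001). Its mean was 3.43 in ORMES-9, 3.39 in rPESC-2 and 6.02 in ORMES-22, so it was under the control level in both lines labelled parthenogenetic.

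**Figure D4:**
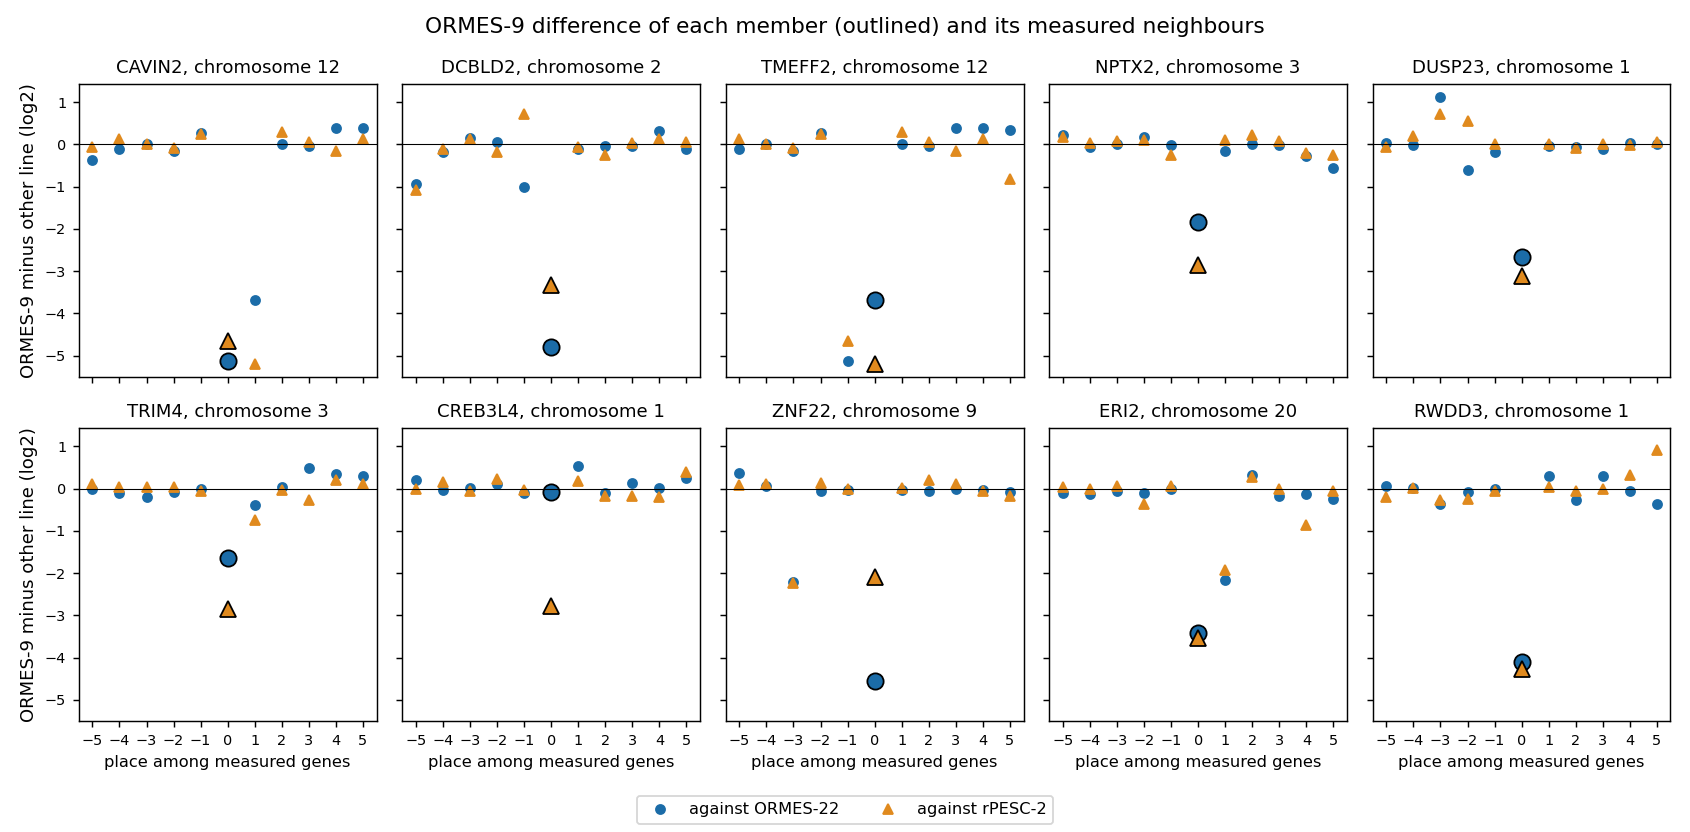
ORMES-9 minus ORMES-22 (circles) and minus rPESC-2 (triangles), log2 on the vertical axis, for each of the 10 genes (outlined, place 0) and up to 5 measured genes on each side in chromosome order (horizontal axis). Most neighbours lie near 0, and the low ones are CAVIN2 and TMEFF2 beside each other, REXO5 beside ERI2 and CXCL12 near ZNF22.

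For each gene the 2 genes with the most similar profile over the 12 arrays were taken from 4521 whose population means spanned at least 1 log2 unit. These correlations rest on 4 populations and for most members mainly repeat the low ORMES-9 values by which the members were chosen. The genes most like CREB3L4 followed its high rPESC-2 level, also part of the choice. Of these, VAT1L was 9.48, 10.75 and 9.27 in ORMES-22, rPESC-2 and ORMES-9. The genes most like NPTX2 were lowest in fibroblasts (ANXA10 at 4.27 and MATN2 at 3.95). CAVIN2 was most like FGD1 (0.966) and DUSP23 (0.961), ERI2 was most like RWDD3 (0.977) and the thymidylate synthase gene TYMS (0.968), and RWDD3 like TYMS and ERI2 (0.977 each). TMEFF2 was most like CMTR2 (0.972) and CRABP2 (0.965), DCBLD2 like LDAH (0.950) and the MHC class I gene MAMU-AG (0.948), and TRIM4 like CEMIP2 (0.983) and KRBOX4 (0.952). DUSP23 was most like CAVIN2 (0.961) and the mitochondrial ribosomal protein gene MRPL44 (0.953), and CREB3L4 like VAT1L (0.932) and TINAG (0.907).

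The 2 remaining genes marked the extremes. NPTX2, near the control level in fibroblasts and graded over the ES lines, was most like the annexin gene ANXA10 (0.993) and MATN2 (0.991), and 276 genes correlated with it above 0.9. ZNF22 had no gene above 0.9, its closest being DCBLD2 and the chromatin remodeller gene ATRX (0.851 each). Most of the similar genes changed less than the members: TYMS was 9.31 in ORMES-9 against 10.44 in ORMES-22, and FGD1 was 6.43 against 7.59. The largest differences from ORMES-22 among those similar genes that are not members were in MAMU-AG (7.58 against 10.02), KRBOX4 (4.83 against 6.77) and CMTR2 (4.81 against 6.49).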

How the data were processed

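Per the submitters' processing notes, the authors summarised the arrays with RMA. The deposited table holds the resulting log2 expression values; the RMA software and version are not given in the sources used here, and the log2 scale was taken from the values. RMA aligns the distributions of arrays summarised together and compresses differences near background. Pairs of ES arrays shared 984 to 1854 identical values, pairs of fibroblast arrays 23 to 48, and a fibroblast with an ES array 0 to 2. Whether all 12 arrays were summarised in 1 run was not tested, nor was its part in the contrasts with fibroblasts. No detection calls were used. Of 52865 features, 99 controls were left out. Gene names came from the platform annotation (24956 probe sets with 1 symbol, 361 with several and 27449 with none), and 24616 matched the RefSeq gene table by gene ID. A gene was represented by its brightest probe set over the 12 arrays, without LOC symbols.

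The test was limma 3.58.1, under R 4.3.3 (group means over 12 arrays, 8 residual and 3.69 prior degrees of freedom, two-sided, Benjamini-Hochberg over 52766 probe sets), checked on simulated data. Named were all members, called neighbours, called related genes (up to 4 per list, none of which arose between ES lines and not all of which are given for fibroblasts) and the 2 most similar genes. Related genes with calls in other probe sets, CAV1 and the dim or bright neighbours given as examples were chosen after their values were seen. Members and lists were chosen with earlier results of these data known. Replicate letters were not treated as pairs. Deviations of same-letter arrays correlated from −0.31 to 0.26, and 6 of 18 pairs were above 0.1. Those of arrays with different letters correlated from −0.25 to 0.35, and 8 of 36 pairs were above 0.1. Depth does not apply to arrays; their number limits the precision.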

Additional observations from a re-analysis of the deposited data

How the results depend on the processing

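Of 1818 differences of single member probe sets under alternative settings, 1764 kept their side of the threshold, 32 lost a call and 22 gained one. A reversal was counted only where the difference was called in either fit, and there were 0. Small differences that were not called could change sign, as RWDD3 did in fibroblasts against ORMES-22. It was −0.13 with all arrays and 0.05 without ORMES-22 replicate A. ZNF22 and NPTX2 account for all lost calls. Without a minimum fold, 7 of the 16 member probe sets were called in rPESC-2 against ORMES-22, against 4 with it. In fibroblasts 12 were called against ORMES-22 and 13 against rPESC-2, where the minimum fold left 7 and 7. Without that minimum, 5 neighbours were called in each ORMES-9 contrast and 2 related genes in each contrast of ES lines. Shares over all probe sets without it were not computed, so these counts are not read as a trait of the members. At an unadjusted limma p under 0.05, 10, 13 and 14 of the 16 passed in the 3 contrasts named first. Of all genes, 26.2%, 72.2% and 67.4% did. In rPESC-2 against ORMES-22, 1 related gene was called with dim probe sets left out and 1 by any probe set, which also called 1 in ORMES-9 against ORMES-22. Within 10 measured genes on each side, 4 (CSGALNACT2 added) and 2 of 179 neighbours were called. With each array left out in turn, member probe sets called ran from 10 to 11 in both ORMES-9 contrasts, 3 to 6 in rPESC-2 against ORMES-22, 6 to 7 in fibroblasts against ORMES-22 and rPESC-2, and were 12 against ORMES-9. Neighbours ran from 3 to 5 and 2 to 3, and related genes in rPESC-2 against ORMES-22 from 0 to 1. With the replicate letter as a replicate block, 11, 10, 4, 7, 7 and 12 member probe sets were called in the 6 contrasts, as without it. Differences near 4.26 are limited by background.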
